A study of Arabidopsis thaliana with 15 samples.

Results

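The linker histone H1 genes of Arabidopsis thaliana are H1.1 (AT1G06760), H1.2 (AT2G30620) and HIS1-3 (AT2G18050), and they were taken from the count table by these identifiers. They are 3 of the 33024 genes in the table and 3 of the 20037 that had enough counts to be tested. HIS1-3 was chosen by its measured transcript level, which had already been seen to be higher in pp1r3-2 and topp4-1 than in wild type, and H1.1 and H1.2 as the rest of the family. Values of HIS1-3 are therefore given as a description with no test. Transcripts were counted by RNA-seq in leaves of Columbia-0 plants, 21 days after germination, from a greenhouse with long days. The genotypes were the single mutant pp1r3-2, the single mutant topp4-1, the septuple topp mutant topp-7m, the double mutant pp1r3-2 topp4-1 and the wild type, with 3 libraries each. The labels do not name the 7 genes mutated in topp-7m or the nature of the alleles, and they leave unsaid whether libraries of the same genotype are separate plants. P-values below therefore cover the scatter among libraries alone, part or all of which may be technical.

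TOPP genes encode catalytic subunits of type 1 protein phosphatase, and the series names PP1R3 as a regulatory subunit. Linker histones bind the nucleosome and the DNA that enters and leaves it, and they help to compact chromatin. In Arabidopsis H1.1 and H1.2 are the main forms, made in most cells. HIS1-3 is a divergent form that is known to be induced by drought, abscisic acid and low light, and to be present in guard cells.

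On the TAIR10.1 assembly HIS1-3 lies on chromosome 2, plus strand, from 7845923 to 7847031, and its exons cover 967 bases. The H1.1 gene lies on chromosome 1, minus strand, from 2076504 to 2077767, with 1159 exonic bases. The H1.2 gene lies on chromosome 2, plus strand, from 13044931 to 13046682, with 1666 exonic bases. The longest run of identical exonic bases was 13 between HIS1-3 and H1.1, 14 between HIS1-3 and H1.2, and 17 between H1.1 and H1.2. The genes that overlap H1.1 on the other strand had at most 12 counts in any library, and the one that overlaps the end of H1.2 had 3 to 18 counts, against at least 1059 for H1.1 and 2502 for H1.2.

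DNA before an annotated transcript start of each gene is shown because letters known from abscisic acid and drought response can be looked for in it. The letters searched, on both strands, were ACGTG (the core of the abscisic acid response element), CACGTG (the G-box, which holds ACGTG on each strand) and CCGAC (the core of the dehydration response element). HIS1-3 has a pair of annotated transcript starts, and the 250 bases before the second, chr2:7845749-7845998 on the plus strand, were read after the data had been seen. The last 76 bases of that window lie inside the annotated gene, whose outermost start is 7845923. For H1.1 (chr1:2077768-2078017, minus strand) and H1.2 (chr2:13044681-13044930, plus strand) they are the 250 bases before the annotated gene start. All are from RefSeq's TAIR10.1 genome, written 5′ to 3′ on the gene's strand, with matches in capitals.
HIS1-3: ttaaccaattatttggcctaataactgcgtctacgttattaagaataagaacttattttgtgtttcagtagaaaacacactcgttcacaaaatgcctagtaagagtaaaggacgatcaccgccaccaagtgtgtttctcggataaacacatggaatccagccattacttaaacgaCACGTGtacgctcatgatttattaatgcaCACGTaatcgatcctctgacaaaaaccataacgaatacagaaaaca
H1.1: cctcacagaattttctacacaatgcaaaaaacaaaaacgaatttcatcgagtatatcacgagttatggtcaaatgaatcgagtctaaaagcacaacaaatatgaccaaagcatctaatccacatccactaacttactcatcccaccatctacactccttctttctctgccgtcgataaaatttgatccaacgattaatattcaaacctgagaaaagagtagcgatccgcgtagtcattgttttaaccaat
H1.2: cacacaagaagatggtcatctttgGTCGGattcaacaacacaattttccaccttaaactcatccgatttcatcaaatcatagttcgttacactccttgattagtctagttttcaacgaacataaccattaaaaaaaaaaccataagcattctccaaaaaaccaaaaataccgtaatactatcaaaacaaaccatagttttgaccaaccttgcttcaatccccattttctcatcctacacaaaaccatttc

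Before the second start of HIS1-3 there was 1 CACGTG, 75 to 70 bases upstream, and 3 matches to ACGTG. Of these 3, a pair overlap each other within the CACGTG, and the third is written CACGT, 46 to 42 bases upstream. All of these matches lie inside the annotated gene, downstream of its outermost start. There was no CCGAC. The 250 bases upstream of the gene, before the first start of HIS1-3, chr2:7845673-7845922, held none of the letters, and neither did those of H1.1. H1.2 held 1 CCGAC, read as GTCGG on its own strand and starting 226 bases upstream. Among 27443 windows of this length before the annotated start of nuclear protein-coding genes, 22.9% held ACGTG, 6.49% held CACGTG and 12% held CCGAC. These shares compare with the window before the first start of HIS1-3, which held none. They are no background for the window before the second start, which lies partly inside the gene. These matches describe the letters and show no binding.

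Total counts per library ranged between 17962200 and 20756997. The leaf transcripts RCA and CA1, for Rubisco activase and carbonic anhydrase, had at least 3220 and 417 CPM (counts scaled to library size) in every library. TOPP4 had 5.44 ± 0.342 CPM in topp-7m, against 30.8 ± 1.83 CPM in wild type (SD, n = 3 each). It had 36.8 ± 1.9 CPM in topp4-1 and 30.6 ± 2.73 CPM in the double mutant, so its level does not check that allele. Wild-type replicate 3 stood apart: chloroplast genes took 0.0813% of its counts, and no more than 0.0208% of those of any other library. Double-mutant replicate 3 was lowest in summed transcripts of core histones, at 1745 CPM against at least 2102 CPM in the other libraries.

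HIS1-3 was highest in topp4-1 and lowest in wild type. In topp4-1 it had 1839, 1804 and 1487 counts, against 95, 56 and 48 counts in wild type. In pp1r3-2 it had 195, 407 and 315 counts, in topp-7m 124, 118 and 134, and in the double mutant 155, 190 and 291. Every mutant library was thus above every wild-type library, and the topp4-1 libraries were above all others. Scaled to library size, the means were 16.4 ± 6.42 CPM in pp1r3-2, 84.9 ± 14.6 CPM in topp4-1, 6.67 ± 0.303 CPM in topp-7m and 11.6 ± 4.27 CPM in the double mutant, against 3.51 ± 1.38 CPM in wild type (SD, n = 3 each). Ordered from low to high, the genotypes were wild type, topp-7m, the double mutant, pp1r3-2 and topp4-1. The ranges of the double mutant and pp1r3-2 overlapped, and those of the other neighbours in this order did not. How many of all genes separate in these ways was not counted.

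**Figure D1:**
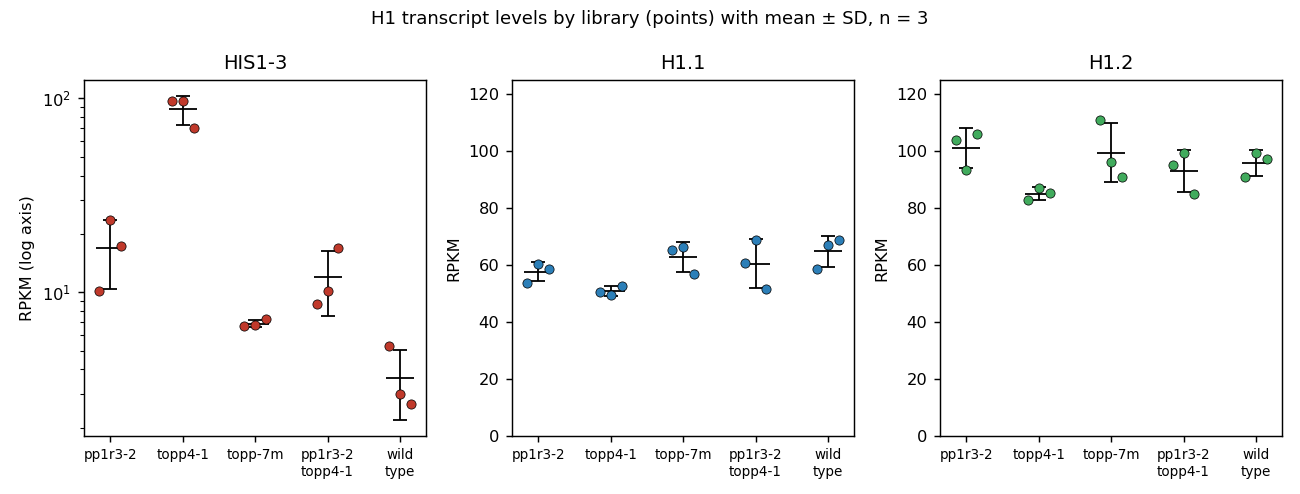
Level of each H1 transcript by library, in counts per kilobase of exon scaled to library size (RPKM), on a log axis for HIS1-3 and on linear axes from 0 for H1.1 and H1.2. Points are libraries and bars the mean ± SD of 3. HIS1-3 means were 87.8 RPKM in topp4-1 and 3.63 RPKM in wild type, while the H1.1 and H1.2 means stayed between 50.9 and 64.7 and between 84.9 and 101 RPKM.

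As log2 fold changes against wild type, with SE, HIS1-3 was at 2.22 ± 0.34 in pp1r3-2, which is 4.67-fold. It was at 4.59 ± 0.35 in topp4-1, or 24.2-fold. In topp-7m it was at 0.93 ± 0.36, or 1.9-fold, and in the double mutant at 1.72 ± 0.35, or 3.29-fold. Among the 20037 genes ordered by fold change, it stood 47th from the top in pp1r3-2, 62nd in topp4-1, 580th in topp-7m and 98th in the double mutant. The wild-type level rested on few counts. When wild-type replicate 1 was left out the changes were 2.57 in pp1r3-2, 4.93 in topp4-1, 1.27 in topp-7m and 2.07 in the double mutant, and leaving out wild-type replicate 3 gave 2.03, 4.40, 0.74 and 1.52 for the same genotypes. In bulk leaf RNA, a change in the number of cells that hold a transcript and a change in its amount per cell cannot be told apart.

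The double mutant had far less HIS1-3 transcript than topp4-1. Set against topp4-1, its log2 change was -2.88 ± 0.31, a ratio of 0.136. Against pp1r3-2 it was -0.51 ± 0.31, a ratio of 0.704, and the libraries of these genotypes overlapped. Double-mutant replicate 3 was the highest of its group, and without it these changes were -3.21 and -0.84. The small change against pp1r3-2 was -0.20 without pp1r3-2 replicate 2 and -0.32 without double-mutant replicate 1. The effect of topp4-1 in the pp1r3-2 background minus its effect in the wild-type background, called the interaction below, was -5.10 ± 0.46 for HIS1-3, 62nd from the bottom of the genes tested. In topp-7m, HIS1-3 was at -3.67 ± 0.33 relative to topp4-1, a ratio of 0.0787. These comparisons share libraries with those against wild type, so they restate one set of levels.

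H1.1 moved within a narrow range. It had 62.3, 69.9 and 67.9 CPM in pp1r3-2, 58.6, 57.1 and 61.1 CPM in topp4-1, 75.5, 77 and 65.7 CPM in topp-7m and 70.5, 79.8 and 59.8 CPM in the double mutant, against 67.8, 77.6 and 79.5 CPM in wild type. The topp4-1 libraries lay below all wild-type, pp1r3-2 and topp-7m libraries, while 1 double-mutant library, at 59.8 CPM, fell inside their range. From low to high the order of means was topp4-1, pp1r3-2, the double mutant, topp-7m and wild type, and every neighbouring pair other than the first overlapped. Such separation of libraries was not counted over all genes. Against wild type the log2 change was -0.17 ± 0.10 in pp1r3-2 and -0.35 ± 0.10 in topp4-1. In those 2 comparisons, in which HIS1-3 had been picked, no test is given for the H1 genes; over all genes tested, 19.3% passed in pp1r3-2 and 53.5% in topp4-1.

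In the remaining comparisons H1.1 was tested with edgeR's quasi-likelihood test and Benjamini-Hochberg adjustment over all genes tested. It did not pass in topp-7m against wild type (-0.04 ± 0.10, adjusted p = 0.84, 95% interval -0.26 to 0.17), where 11.6% of all genes passed at an adjusted p under 0.05. It did not pass in the double mutant against wild type (-0.10 ± 0.10, adjusted p = 0.566, 95% interval -0.32 to 0.12), where 13.1% did. It was higher in topp-7m than in topp4-1 by 0.30 ± 0.10 (edgeR adjusted p = 0.03), where 37.8% of all genes passed. That call was lost without topp-7m replicate 1 or 2 or topp4-1 replicate 1 or 2, with adjusted p up to 0.0991. The double mutant against topp4-1 gave 0.25 ± 0.10 (edgeR adjusted p = 0.0629), beside 43.3% of genes called. Without double-mutant replicate 3 this change was 0.35 and passed (edgeR adjusted p = 0.00875), and its adjusted p was up to 0.303 in the other fits without 1 library. The double mutant against pp1r3-2 gave 0.07 (edgeR adjusted p = 0.96), beside 7 genes called, or 0.0349%. For H1.1 the interaction was 0.42 ± 0.15 (edgeR adjusted p = 0.0337), against a background of 38.3%. That call was lost, with adjusted p up to 0.102, without replicate 2 or 3 of wild type, replicate 1 or 2 of topp4-1, replicate 1 or 2 of the double mutant or replicate 1 of pp1r3-2. These tests of H1.1 use the topp4-1 libraries in which its low level had been seen.

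H1.2 was the most abundant H1 transcript per length except in 2 of the 3 topp4-1 libraries, where HIS1-3 was higher. It had 174, 155 and 177 CPM in pp1r3-2, 138, 145 and 142 CPM in topp4-1, 184, 160 and 152 CPM in topp-7m and 158, 165 and 141 CPM in the double mutant, against 151, 166 and 162 CPM in wild type. The topp4-1 libraries all lay below the wild-type ones, in a comparison in which 53.5% of all genes passed edgeR's test. How many of all genes separate in this way was not counted. The order of means was topp4-1, the double mutant, wild type, topp-7m and pp1r3-2, with every neighbouring pair overlapping. The log2 change against wild type was 0.08 ± 0.09 in pp1r3-2 and -0.17 ± 0.09 in topp4-1. It did not pass edgeR's test in topp-7m (0.05 ± 0.09, adjusted p = 0.781, 95% interval -0.15 to 0.25) or in the double mutant (-0.04 ± 0.09, adjusted p = 0.806, 95% interval -0.24 to 0.16) against wild type. Nor did it pass in topp-7m against topp4-1 (0.22 ± 0.09, adjusted p = 0.0708), in the double mutant against topp4-1 (0.13 ± 0.09, adjusted p = 0.282) or against pp1r3-2 (-0.12, adjusted p = 0.886), or in the interaction (0.05 ± 0.13, adjusted p = 0.807). The change in topp-7m against topp4-1 passed without topp-7m replicate 3 (0.28, edgeR adjusted p = 0.04), and its adjusted p was up to 0.29 in the other fits without 1 library.

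**Figure D2:**
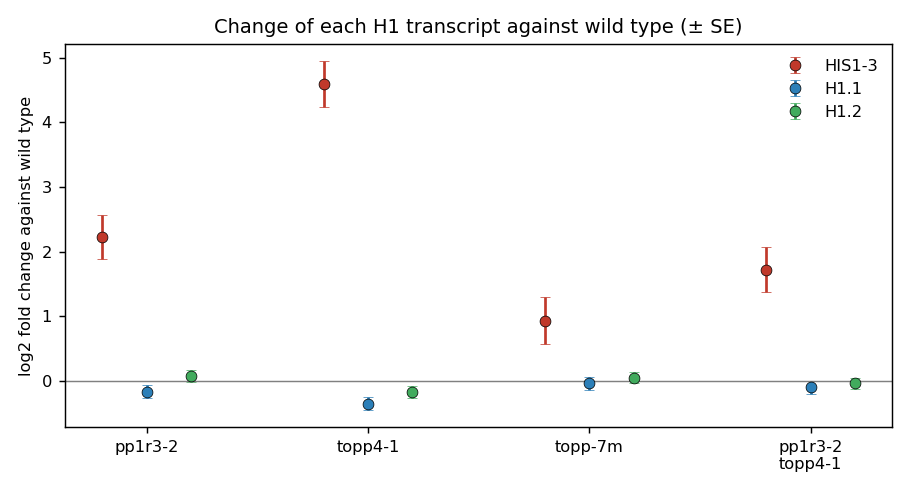
Log2 fold change against wild type of the 3 H1 transcripts in each mutant, with SE from the fit over all 15 libraries. HIS1-3 lies between 0.93 and 4.59, and H1.1 and H1.2 between -0.35 and 0.08.

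Over all 15 libraries the SD of log2 CPM was 1.64 for HIS1-3, larger than that of 99.5% of the genes tested. It was 0.17 for H1.1 and 0.12 for H1.2, larger than that of 19.2% and 7.59% of genes, and the median of all genes was 0.29. HIS1-3 was picked for a level that differed between these genotypes, so its large SD follows from the choice. The genes were not matched for transcript level.

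The make-up of the H1 transcripts differed between genotypes accordingly. Per length, HIS1-3 made up 42.1%, 41.4% and 33.8% of the summed H1 transcripts in topp4-1, against 3.41%, 1.76% and 1.57% in wild type. It made up 9.61% ± 3.62 in pp1r3-2, 4.11% ± 0.519 in topp-7m and 7.37% ± 3.24 in the double mutant (SD, n = 3 each). HIS1-3 was thus a large part of the pool in topp4-1, and no library of another genotype was above 13.3%. The sum of the 3 transcripts was 224 ± 13.7 RPKM in topp4-1, against 164 ± 8.39 RPKM in wild type. It was 176 ± 7.09 RPKM in pp1r3-2, 169 ± 13.5 in topp-7m and 165 ± 12.5 in the double mutant. The lowest topp4-1 library, at 208 RPKM, was above the highest of the others, at 182 RPKM. Both the share and the sum include HIS1-3, which had been picked for its rise in topp4-1, so this separation shows nothing further. H1.1 and H1.2 together had 136 ± 2.52 RPKM in topp4-1, against 160 ± 9.81 RPKM in wild type. The ratio of H1.2 to H1.1 per length was 1.77 ± 0.2 in pp1r3-2, 1.67 ± 0.0872 in topp4-1, 1.58 ± 0.126 in topp-7m and 1.55 ± 0.101 in the double mutant, against 1.48 ± 0.0651 in wild type.

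**Figure D3:**
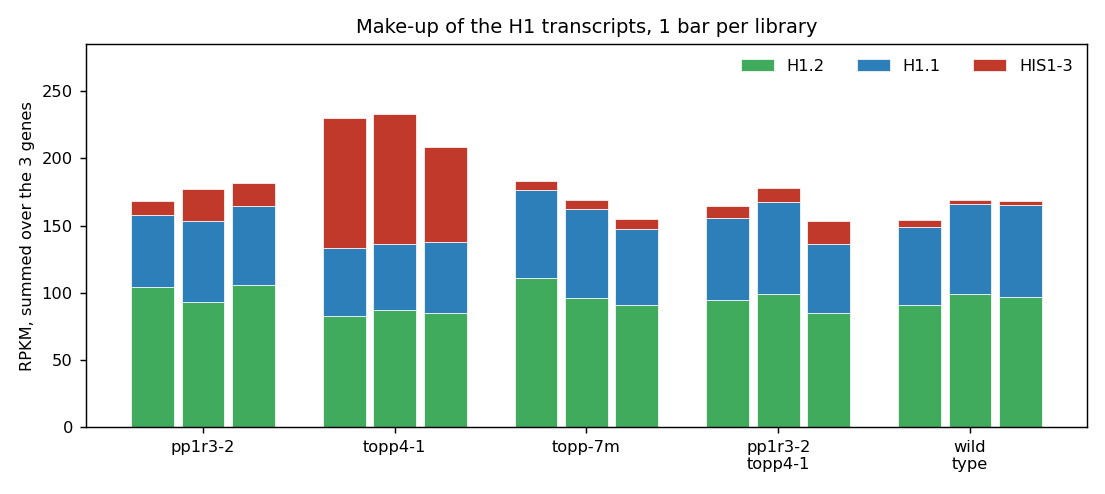
Stacked RPKM of H1.2, H1.1 and HIS1-3 in each library, 1 bar per library, 3 per genotype. HIS1-3 makes up 33.8% to 42.1% of the topp4-1 bars and 1.57% to 3.41% of the wild-type bars.

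Linker histones sit on nucleosomes built of the core histones H2A, H2B, H3 and H4, and much core histone mRNA is made during DNA replication. Of 39 core histone genes tested, 27 fell in topp4-1 against wild type, 5 rose and 7 did not pass, with a median log2 change of -0.74. In that comparison 26.5% of all genes fell and 27% rose, with a median of 0.01. Leaving out single libraries gave 22 to 28 that fell and 1 to 5 that rose. The count of rises was 3 when pp1r3-2 replicate 1 or wild-type replicate 2 was left out. It was 2 without wild-type replicate 1, topp4-1 replicate 1 or 2 or pp1r3-2 replicate 3, and 1 without wild-type replicate 3. Core histone genes have near-identical copies, so single values are uncertain. These lists and those below were chosen with earlier results of these data known. Their counts beside the shares of all genes are therefore a description and no independent evidence.

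Among 13 H2A genes 10 fell and 3 rose in topp4-1. HTA6 had 31.8 ± 3.62 CPM in topp4-1 and 86.8 ± 14 CPM in wild type (-1.45 ± 0.25, edgeR adjusted p = 0.000351). The count of H2A rises was 0 without wild-type replicate 3, and 1 when wild-type replicate 1 or 2, topp4-1 replicate 1 or 2 or pp1r3-2 replicate 3 was left out. HTA10 was at -1.26 ± 0.22, H2AV (AT3G54560) at -1.26 ± 0.35 and HTA4 at -1.08 ± 0.31. Of the 9 H2B genes tested 7 fell, with AT2G37470 at -1.29 ± 0.24, AT5G22880 at -1.15 ± 0.30, AT3G53650 at -1.09 ± 0.19 and HTB1 at -0.70 ± 0.26. Among the 8 H4 genes 6 fell, including AT3G46320 and AT5G59690, both at -1.31. HIS4 was at -1.19 ± 0.21 and AT5G59970 at -1.15 ± 0.35.

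The 9 H3 genes split in topp4-1, with 4 that fell and 2 that rose. Those that fell all carry the symbol HTR2 in the table: AT5G10390 (-1.36 ± 0.31), AT5G65360 (-1.25 ± 0.25), AT5G10400 (-1.25 ± 0.35) and AT1G09200 (-1.21 ± 0.21). Those that rose both carry the symbol HTR8 and were named after their values were seen: AT4G40040 (0.83 ± 0.09, edgeR adjusted p = 1.98e-06) and AT5G10980 (0.19 ± 0.07, edgeR adjusted p = 0.0466). The second rise was close to the threshold, and the count of rises was 1 in every fit without 1 library other than those without wild-type replicate 2 or double-mutant replicate 3. Summed over the 9 genes, H3 transcripts were at 1020 to 1120 CPM in topp4-1, against 896 to 982 CPM in wild type, while H4 transcripts were at 236 to 250 CPM in topp4-1, against 368 to 512 CPM in wild type. The ratio of H1.1 and H1.2 to core histones was 8.75, 9.55 and 9.64 CPM per 100 CPM in topp4-1. In wild type it was 9.32, 8.71 and 8.55, and these overlapped. It was 9.51, 9.49 and 11.5 in pp1r3-2, 9.32, 9.75 and 10.3 in topp-7m, and 9.36, 9.95 and 11.5 in the double mutant. All pp1r3-2 and double-mutant libraries were thus above the wild-type ones. These ratios were not tested.

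In the other genotypes few core histone genes passed. In pp1r3-2 against wild type 4 of 39 fell and 1 rose, where 8.33% of all genes fell and 10.9% rose, with a list median of -0.30. DESeq2 called 9 that fell. Leaving out single libraries gave 0 to 9: the count was 9 without double-mutant replicate 3, 7 without wild-type replicate 1, 2 without pp1r3-2 replicate 1, 1 without wild-type replicate 2, and 0 without replicate 3 of either pp1r3-2 or wild type. No core histone gene passed in topp-7m by edgeR's test, where 5.46% of all genes fell and 6.18% rose, and the median was -0.17; at an unadjusted p under 0.05 there were 4 lower and 2 higher, and DESeq2 called 1 in each direction. With edgeR 2 fell without topp-7m replicate 1 and 1 without double-mutant replicate 3. In the double mutant 2 of 39 fell, where 5.47% of all genes fell and 7.66% rose, with a median of -0.40. DESeq2 called 7 that fell and 2 that rose, and at an unadjusted p under 0.05 edgeR gave 14 lower and 2 higher. The edgeR count of falls was 0 without double-mutant replicate 3 or wild-type replicate 3, and 5 when wild-type replicate 1 was dropped. It was 1 to 3 in the other fits without 1 library.

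Other proteins share the globular domain of H1. Of 12 genes listed as such 10 were tested and 2 had 0 counts in all libraries. The count table's own annotation gives the domain to 9 genes other than H1, so not all 12 listed genes carry it there. In topp4-1 against wild type 4 rose, 1 fell and 5 did not pass, with a median of 0.16. Over all genes 27% rose and 26.5% fell in that comparison. AT1G17520 had 23.4 ± 0.768 CPM in topp4-1 and 14.8 ± 2.04 CPM in wild type (0.66 ± 0.12, edgeR adjusted p = 0.000319). HON5 rose by 0.44 ± 0.09 and TRB3, a telomere repeat binding factor, fell by 0.31 ± 0.10 on the log2 scale. HMGA, an AT-hook protein, was at 0.81 ± 0.37 (edgeR adjusted p = 0.0829). The number that rose was 2 without wild-type replicate 1 or topp4-1 replicate 2 or 3, and the fall was lost without wild-type replicate 2. The 10 changes spanned -0.31 to 0.81.

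HMGB proteins bind DNA, and in mammals they compete with H1 for nucleosomes. Of 6 genes 2 rose and 1 fell in topp4-1, shares near those of all genes there (27% rose and 26.5% fell). HMGB1 had 91.3 ± 6.08 CPM in topp4-1 and 60 ± 4 CPM in wild type (0.61 ± 0.08, edgeR adjusted p = 8.92e-06), and HMGB3 rose by 0.28 ± 0.08. AT5G23420, named HMGB7 in the table, fell by 1.32 ± 0.18 on the log2 scale, and HMGB4 was at -0.17 ± 0.15 (edgeR adjusted p = 0.363). The count of rises was 1 without wild-type replicate 3 or topp4-1 replicate 1. In the double mutant 3 of the 6 fell, where 5.47% of all genes fell: HMGB3 (-0.39 ± 0.09, edgeR adjusted p = 0.00745), AT5G23420 (-0.59 ± 0.18) and HMGB2 (-0.34 ± 0.09), the last named after its value was seen. That count was 1 without wild-type replicate 2 or double-mutant replicate 1.

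DNA methylation is a further process that H1 is known to limit, by restricting access of the methyltransferases. Of 10 genes for methylation and its remodelling 4 fell, 1 rose and 5 did not pass in topp4-1, with a median of -0.91. Over all genes 26.5% fell and 27% rose in that comparison. The demethylase gene ROS1 had 22.5 ± 4.59 CPM in topp4-1 and 61.5 ± 5.17 CPM in wild type (-1.45 ± 0.14, edgeR adjusted p = 7.39e-07). The methyltransferase genes DMT1 (also called MET1), CMT3 and CMT2 were at -1.09 ± 0.20, -1.01 ± 0.22 and -0.93 ± 0.15. Leaving out single libraries gave 4 to 6 that fell, and 2 rises without wild-type replicate 1. ROS1 also fell in the double mutant (-0.77 ± 0.14, edgeR adjusted p = 0.00182), the only gene of the 10 that passed edgeR's test there. Over all genes 5.47% fell and 7.66% rose in the double mutant. The shares were 8.33% and 10.9% in pp1r3-2, and 5.46% and 6.18% in topp-7m. None of the 10 passed edgeR's test in pp1r3-2 (3 lower and 1 higher at an unadjusted p under 0.05, 1 lower by DESeq2) or in topp-7m (0 at an unadjusted p under 0.05 and 0 by DESeq2).

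HIS1-3 is itself known as a drought and abscisic acid induced gene, and other genes of that kind went both ways. Of 20 tested 13 rose and 5 fell in topp4-1, with a median of 1.08, where 27% of all genes rose and 26.5% fell. ATHB-7, a homeobox factor gene, had 117 ± 11.1 CPM in topp4-1 and 13.1 ± 0.319 CPM in wild type (3.16 ± 0.22, edgeR adjusted p = 9.11e-08). AIP1 (also called HAI2), which encodes a phosphatase of the abscisic acid pathway, rose by 3.68 ± 0.50 and LTI65 (also called RD29B) by 2.78 ± 0.40. RD29A had 28.3 ± 4.26 CPM in topp4-1 and 435 ± 97.2 CPM in wild type, a change of -3.95 ± 0.24. The highest of the 20 was AIP1, at 3.68, from a low level of 0.281 CPM in wild type. HIS1-3 was at 4.59, but it had been picked for its rise here, so its place above the list shows nothing further.

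In the other genotypes fewer genes of this list passed. In pp1r3-2 2 rose and 6 fell (median -0.25), in topp-7m 2 rose and 6 fell (median -0.18), and in the double mutant 1 rose and 4 fell (median -0.23). Over all genes 10.9% rose and 8.33% fell in pp1r3-2. The shares were 6.18% and 5.46% in topp-7m, and 7.66% and 5.47% in the double mutant. The counts of 2 rises were 1 to 2 in pp1r3-2 and 1 to 3 in topp-7m when single libraries were left out, and DESeq2 called 4 rises in topp-7m. In pp1r3-2 the count was 1 without replicate 2 or 3 of pp1r3-2 or of wild type. In topp-7m it was 1 when replicate 1 or 2 of wild type or topp4-1, replicate 2 or 3 of topp-7m or double-mutant replicate 2 was left out, and in the double mutant it was 2 without pp1r3-2 replicate 1. ATHB-7 rose in pp1r3-2 (0.83 ± 0.22, edgeR adjusted p = 0.0177) and in topp-7m (0.75 ± 0.22, edgeR adjusted p = 0.0399), and was at 0.46 ± 0.22 in the double mutant (edgeR adjusted p = 0.191). RD29A fell in every mutant, with log2 changes of -2.90 in pp1r3-2, -3.95 in topp4-1, -3.46 in topp-7m and -3.49 in the double mutant.

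Low light is the other known inducer of HIS1-3. The list of such genes was chosen with earlier results of these data known. Of 8 dark and low-light induced genes 7 rose and 1 fell in topp4-1, with a median of 2.38. These counts were the same in each fit without 1 library. Over all genes 27% rose and 26.5% fell in that comparison. BGLU30, a glucosidase gene, had 137 ± 29.4 CPM in topp4-1 and 6.73 ± 2.39 CPM in wild type (4.34 ± 0.41, edgeR adjusted p = 2.97e-06). BCAT2, for branched-chain amino acid breakdown, rose by 2.53 ± 0.25 and STR15 (also called SEN1) by 2.51 ± 0.29, while DIN11 fell by 3.67 ± 0.71 on the log2 scale. Over all genes 10.9% rose in pp1r3-2, 6.18% in topp-7m and 7.66% in the double mutant, where 5.47% fell. Of the 8 listed genes 3 rose in pp1r3-2 (median 0.24) and 5 in topp-7m (median 0.94). In the double mutant 1 fell and none rose by edgeR's test (median -0.19, with 1 higher at an unadjusted p under 0.05 and 0 by DESeq2). That fall was lost without any 1 of the topp4-1 libraries, double-mutant replicate 2 or 3, or replicate 3 of topp-7m or wild type. The count in topp-7m was as low as 2, the value without wild-type replicate 3, and it also moved by over 1.5 times without wild-type replicate 2 or topp-7m replicate 2. STR15 rose in topp-7m (1.44 ± 0.28, edgeR adjusted p = 0.0046) and pp1r3-2 (0.98 ± 0.28, edgeR adjusted p = 0.0247).

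**Figure D4:**
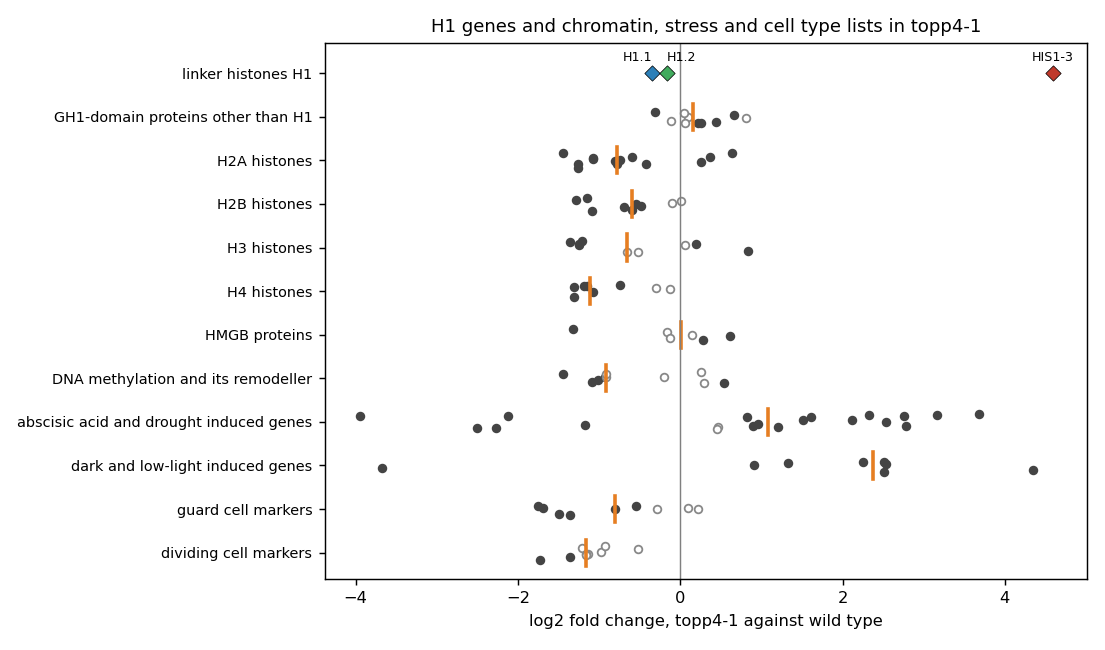
Log2 fold change in topp4-1 against wild type of the H1 genes (diamonds) and of the genes of 11 lists, 1 row per list. Filled circles passed edgeR's test at an adjusted p under 0.05, open circles did not, and orange bars are list medians, from -1.16 for dividing cell markers to 2.38 for dark and low-light induced genes.

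Markers of cell types that could carry these transcripts were also measured. HIS1-3 is known from guard cells, and 6 of 9 guard cell markers fell in topp4-1 (median -0.80), where 26.5% of all genes fell. The largest changes were MYB60 at -1.75 ± 0.23, GASA9 (also called GC1) at -1.69 ± 0.19, the anion channel gene SLAC1 at -1.49 ± 0.36 and HT1 at -1.36 ± 0.38. The 3 that did not pass, named after their values were seen, were KAT1 (0.22 ± 0.25), SRK2E (0.09 ± 0.11) and ATMPK12 (-0.29 ± 0.16). The summed guard cell markers were at 66.7 to 67 CPM in topp4-1, 101 to 109 CPM in pp1r3-2, 92.2 to 107 CPM in topp-7m and 97.7 to 118 CPM in the double mutant, against 97.7 to 137 CPM in wild type, and no marker was at 0.

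Dividing cells carry most replication-linked histone mRNA. Of their 9 markers 2 fell in topp4-1, where 26.5% of all genes fell, and the median was -1.16. Those that fell were the cyclin gene CYCB1-3 (-1.73 ± 0.57, edgeR adjusted p = 0.019) and KN, which encodes the cytokinesis syntaxin KNOLLE (-1.36 ± 0.53, edgeR adjusted p = 0.0473). CYCB1-1 was at -1.21 ± 0.52 and CDKB1-2 at -1.16 ± 0.62, with adjusted p of 0.0618 and 0.125 by edgeR. DESeq2 called 6 that fell, and edgeR 0 to 8 when single libraries were left out; it was 0 without wild-type replicate 3 or topp4-1 replicate 1 or 2, 6 without wild-type replicate 1, 7 without topp-7m replicate 3 and 8 without double-mutant replicate 3. The summed markers were at 33 to 41.9 CPM in topp4-1, 41.4 to 66.9 CPM in pp1r3-2, 38.9 to 101 CPM in topp-7m and 15.3 to 72.6 CPM in the double mutant, against 57.3 to 96.9 CPM in wild type, with no marker at 0. The part of dividing cells in the histone values, and of guard cells in the HIS1-3 values, was not tested.

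The genes nearest to each H1 gene in profile were found from the root-mean-square difference of log2 CPM, each gene centred on its own mean over the 15 libraries. For HIS1-3 they were AT2G01008 (0.56), PHO1-H10 (0.59), AT2G16676 (0.62), AGO3 (0.62) and MRS2-8 (0.63), against a median of 1.6 over all genes. AGO3, an Argonaute gene of small RNA pathways, had 275, 296 and 301 counts in topp4-1, 92, 107 and 89 in pp1r3-2, 48, 49 and 70 in topp-7m and 38, 88 and 121 in the double mutant, against 23, 35 and 23 in wild type. PHO1-H10, of the PHO1 family, had 458, 417 and 501 counts in topp4-1, against 52, 30 and 40 in wild type. All 5 were highest in topp4-1, which follows from their being picked for likeness to HIS1-3. AT2G16676 had 24, 23 and 33 counts in topp4-1 and 0 counts in every wild-type library, so its likeness rests on few counts. Its highest count outside topp4-1 was 4, so it was kept for testing only through topp4-1.

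H1.1 and H1.2 had closer neighbours, and the medians over all genes were smaller too. For H1.1 the 5 nearest were AT1G16870, OFUT15, AT2G26730, ATHSD2 and UBC22, at 0.08 to 0.09 against a median of 0.33. For H1.2 they were AT3G52660, PIS2, RBP47C, ADF3 and NUDT23, at 0.06 to 0.08 against a median of 0.31. All 15 libraries are shared between the genes compared, so no p is given.

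**Figure D5:**
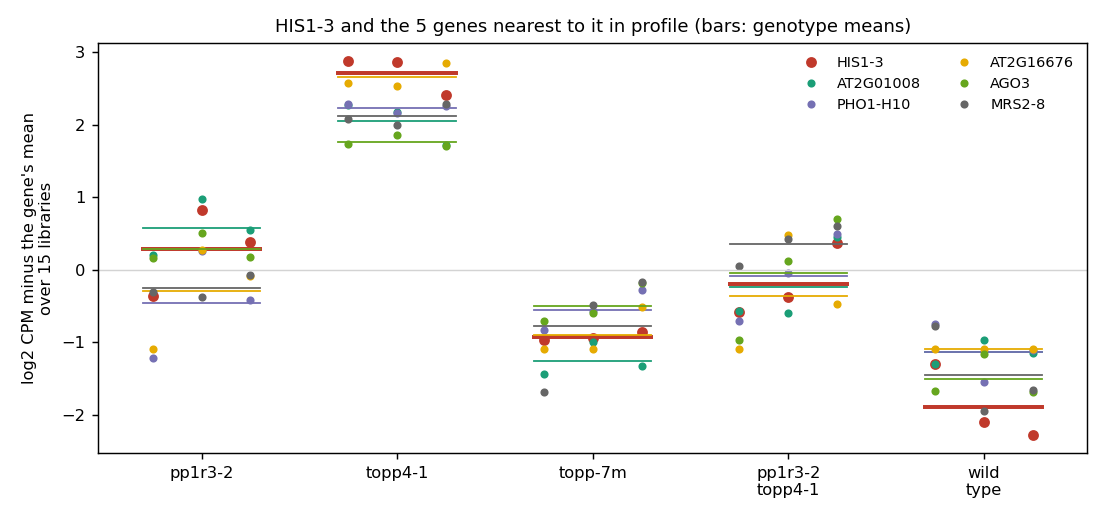
Log2 CPM of HIS1-3 and of the 5 genes nearest to it in profile, each minus its own mean over 15 libraries. Points are libraries and horizontal bars genotype means. Each of the 6 genes is highest in the 3 topp4-1 libraries, and the 5 were picked for likeness to HIS1-3, which is highest there.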

How the data were processed

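Per the labels' protocols, leaf mRNA was captured on poly-T beads and made into libraries with a NEBNext kit. The authors deposited a table of raw counts per gene. The submitters' processing notes name HISAT2 2.0.5. How and on which strand reads were counted, and on which build and annotation, is not given in the sources used here, so a gene and an antisense partner cannot be told apart. TAIR10.1 held 32548 of the identifiers, with identical start and end for 32532 (99.95%).

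Genes were kept by filterByExpr (minimum count 10, minimum total 15). All 15 libraries entered a robust quasi-likelihood fit with TMM factors and a mean for each genotype (edgeR 4.0.16, R 4.3.3, 10 residual degrees of freedom), with Benjamini-Hochberg adjustment over 20037 genes and a threshold of 0.05. The fit was also run on simulated data in which few genes changed, as many up as down. In topp4-1 against wild type 53.5% of genes passed, so that run does not check the fit under so many changes. The common biological coefficient of variation was 14.2%. RPKM used the gene length in the table. Log2 CPM used a prior count of 2. All replicate pairs differed beyond sampling noise (chi-square 5.67 to 26.3 per gene) and were kept as separate replicates.

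The H1 genes and the 11 lists (116 genes) were chosen with earlier results of these data known. Named genes are the H1 genes, up to 4 tested genes per list with the largest absolute change in topp4-1 against wild type, and the 5 nearest profiles per H1 gene. Alternatives were RLE size factors, other filters, DESeq2 1.42.0, a fit of only the libraries compared, a replicate block, shares without division by length, and leaving out each library. The list counts without single libraries, by DESeq2 and at an unadjusted p, and the window before the second HIS1-3 start were added after seeing the data.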

Additional observations from a re-analysis of the deposited data

Results flagged for a closer look

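H1.1 passed a test of whether the effect of topp4-1 differs between backgrounds, but that test uses the libraries in which the low H1.1 level of topp4-1 had already been seen, so it gives no independent evidence of a difference. The effect in pp1r3-2 minus that in wild type was 0.42 ± 0.15 on the log2 scale, as an interaction term (edgeR quasi-likelihood adjusted p = 0.0337). H1.1 had 70 ± 9.99 CPM in the double mutant and 66.7 ± 3.94 CPM in pp1r3-2, and 58.9 ± 2 CPM in topp4-1 against 75 ± 6.23 CPM in wild type (SD, n = 3 each). Among all genes 38.3% passed the same test. Without single libraries the value was 0.31 to 0.52, and the call was lost without wild-type replicate 2 (edgeR adjusted p = 0.0702) or 3 (0.074), double-mutant replicate 1 (0.0579) or 2 (0.102), pp1r3-2 replicate 1 (0.0591), or topp4-1 replicate 1 (0.0544) or 2 (0.0725).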

How the results depend on the processing

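RLE size factors, both other filters on low counts and the replicate block were each applied to 32 results. Under these settings no H1 change reversed its direction, and no call of H1.1 or H1.2 changed where these were tested. The numbers of genes called did shift. In the double mutant against pp1r3-2 it was 7 in the main fit. It was 5 with RLE size factors, 9 with no filter on low counts, and 8 with the other filter and with the replicate block. In pp1r3-2 against wild type it was 3862 in the main fit and 3516 to 4038 under these settings. With DESeq2 the H1.1 change in the double mutant against topp4-1 was 0.26 (adjusted p = 0.0481) and that of H1.2 in topp-7m against topp4-1 was 0.24 (adjusted p = 0.0292), both now past the threshold, and 59 genes were called in the double mutant against pp1r3-2. In fits of only the libraries compared, 1342 genes were called in the double mutant against wild type and 3 against pp1r3-2. Without division by length the HIS1-3 share was 2.75% in topp-7m and 29.6% in topp4-1. The cause of these shifts was not tested. The fits of only the libraries compared used fewer libraries, and also redid the filter, the TMM factors and the estimate of the spread.

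Without single libraries, genes called were 2388 to 3915 in pp1r3-2 against wild type, 1349 to 2361 in topp-7m, 1379 to 3008 with the double mutant, and 2 to 12 in the double mutant against pp1r3-2. Against wild type, H1.1 changed by -0.13 to 0.02 in topp-7m and, in the double mutant, by -0.20 to 0.00. Its change was 0.15 to 0.35 in the double mutant and 0.26 to 0.37 in topp-7m against topp4-1, -0.03 to 0.17 in the double mutant against pp1r3-2, and 0.31 to 0.52 as the interaction. The H1.2 change against wild type was -0.03 to 0.11 in topp-7m and, in the double mutant, -0.09 to 0.02. It was 0.14 to 0.28 in topp-7m against topp4-1, and -0.01 to 0.12 as the interaction. HIS1-3 kept its direction in every such fit against wild type. Its change ran from 1.92 to 2.57 for pp1r3-2, from 4.40 to 4.93 for topp4-1, from 0.74 to 1.27 for topp-7m and from 1.38 to 2.07 for the double mutant. For the double mutant against pp1r3-2 it ran from -0.84 to -0.20. Its share in topp4-1 was 37.6% to 41.7%.

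The replicate numbers did not pair the samples: deviations of same-numbered samples correlated at -0.337 to 0.514, with a median of 0.0075 over 30 pairs. With 48 to 95 HIS1-3 counts per wild-type library, its fold changes are less precise than those of H1.1 and H1.2.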
